A study of Mus musculus with 9 samples.

Results

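The genes described here are the 2 adiponectin receptor genes Adipor1 and Adipor2, the adiponectin-binding cadherin gene Cdh13, 5 relatives of the receptors in the PAQR family (Paqr3, Paqr4, Paqr7, Paqr8 and Paqr9) and the adaptor genes Appl1 and Appl2. They were chosen by symbol, whatever their values, and are 10 of the 35275 entries of the deposited gene table. Of the 10, 9 had enough reads to be tested among 13151 genes, and Paqr8 did not. RNA was measured by sequencing of whole mouse liver in 9 libraries. All came from C57BL/6 mice and fell into 3 groups of 3. The first group received the vehicle, PBS. The next received AdipoRon, a synthetic small molecule that activates both adiponectin receptors. The last received AdipoRonPEG5, a form of AdipoRon carrying a polyethylene glycol (PEG) chain. All groups were injected 2 times a day for 5 days. The labels state 5 mg/kg in 1 sentence that covers the PBS as well as the compounds, which leaves the dose of each compound uncertain. Genotype, sex and age are not given in the labels, nor whether the libraries of a group came from separate animals. If they did not, the p-values measure technical spread only.

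Adiponectin is a hormone secreted by fat cells that acts on liver through AdipoR1 and AdipoR2. These receptors span the membrane many times with the amino terminus inside the cell, the reverse of G protein-coupled receptors, and they lower ceramide and act through AMPK and PPAR-alpha. The adaptor APPL1 binds the receptors' intracellular part, its relative APPL2 can compete with it, and other PAQR proteins respond to progestins or sit in the Golgi.

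The stretches of 250 bases before the annotated starts of both receptor genes are shown because the receptors are the targets of AdipoRon. They come from RefSeq (GRCm38.p6), in which 7 of the 10 genes had a matching promoter window, and are written 5′ to 3′ on the gene's strand. Adipor1 has 2 annotated starts, of which the upstream one is shown (chr1:134415128-134415377, plus strand), and Adipor2 has 1 (chr6:119388735-119388984, minus strand). Capitals mark matches, on either strand, to a GC box (GGGCGG) or a CCAAT box (CCAAT).
Adipor1: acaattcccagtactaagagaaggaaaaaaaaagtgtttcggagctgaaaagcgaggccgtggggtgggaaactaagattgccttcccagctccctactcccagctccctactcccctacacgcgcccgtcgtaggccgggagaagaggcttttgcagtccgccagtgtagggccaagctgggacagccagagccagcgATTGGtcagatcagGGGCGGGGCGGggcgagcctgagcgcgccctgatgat
Adipor2: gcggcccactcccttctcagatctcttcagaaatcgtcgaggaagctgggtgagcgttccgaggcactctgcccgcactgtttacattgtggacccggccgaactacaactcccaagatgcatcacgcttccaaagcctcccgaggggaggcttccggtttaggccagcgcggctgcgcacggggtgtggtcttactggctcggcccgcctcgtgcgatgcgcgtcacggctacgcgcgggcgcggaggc
The Adipor1 stretch held 2 GC boxes, beginning 37 and 32 bases before the start and sharing 1 base, and 1 CCAAT box at 51 bases. A search of the Adipor2 stretch found neither of these motifs, and an E-box (CACGTG) and a TATA box (TATAAA) were found in neither stretch. Among all 32851 windows of this length, 32.7% held a GC box, 33.8% a CCAAT box, 6.02% that E-box and 12.4% that TATA box. The G and C content was 59.6% with 15 CpG sites for Adipor1 and 64.8% with 27 for Adipor2, against medians of 52.4% and 6 over all windows. The 250 bases before the downstream Adipor1 start, not printed, held 79.2% G and C, 33 CpG sites, 2 GC boxes and no CCAAT box. The order of the receptors in G and C content and in CpG sites therefore depends on the start, as does the CCAAT box of Adipor1. Its number of GC boxes does not. These matches describe the letters only.

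Total counts were 39473195 in vehicle 1 and 13942322 to 18508950 in the other 8 libraries. Vehicle 3 and AdipoRonPEG5 1 stood apart in the acute phase gene Saa1, at 4959 and 1952 CPM (read counts scaled to the size of each library by the TMM method) against 45.1 to 497 in the other libraries. The summed level of 12 hepatocyte markers was 108879 to 116070 CPM in vehicle, 91867 to 98287 in AdipoRon and 95664 to 104442 in AdipoRonPEG5 libraries, so that the markers of the labelled tissue were abundant. Those of 11 macrophage markers were 189 to 273, 453 to 801 and 701 to 736 CPM. Against vehicle, 11 of the 11 passed as higher with AdipoRonPEG5, where 9.55% of all tested genes did. With AdipoRon against vehicle 10 of 11 passed as higher, where 5.20% of all tested genes passed in either direction. In whole tissue, fewer cells of a type and less RNA per cell cannot be told apart.

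Per gene length, Adipor2 was the most abundant of the 10 mRNAs in every group. Levels between genes are given as the deposited FPKM (counts scaled to gene length and library total). Adipor2 stood at 114 ± 6.63, 122 ± 5.52 and 91.2 ± 1.64 FPKM in vehicle, AdipoRon and AdipoRonPEG5 livers (SD, n = 3). In vehicle, Adipor1 (26.0 ± 1.56) and Paqr9 (25.2 ± 0.527) came next and overlapped. Paqr7 (14.2 ± 5.54), Appl2 (6.05 ± 0.378), Appl1 (1.51 ± 0.144) and Paqr3 (0.858 ± 0.0967) followed with no overlap between neighbours. Cdh13 (0.187 ± 0.0584), Paqr4 (0.176 ± 0.142) and Paqr8 (0.0347 ± 0.0288) were lowest, each overlapping the next. The first 7 genes kept this order of means in both treated groups. Adipor1 and Paqr9 overlapped again with AdipoRon but not with AdipoRonPEG5, and Paqr4 stood above Cdh13 in both treated groups, overlapping it with AdipoRon.

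**Figure D1:**
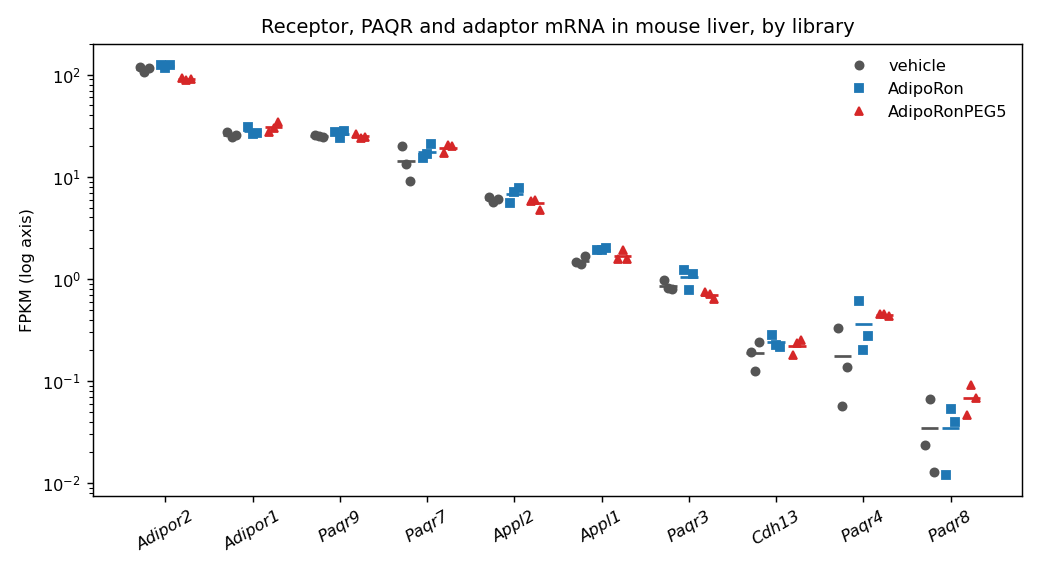
Level of each of the 10 mRNAs in FPKM (log axis), 1 point per library, with a bar at the mean of each group of 3. Adipor2 is highest throughout, and its AdipoRonPEG5 points (89.8 to 93.0 FPKM) lie below those of the other groups.

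Adipor2, the receptor best known in liver, was lower with AdipoRonPEG5 and not detectably changed with AdipoRon. It was at 504, 465 and 530.4 CPM in vehicle 1, 2 and 3 and at 508, 472 and 505 CPM in the AdipoRon libraries. The AdipoRonPEG5 libraries were at 383, 361 and 384 CPM. Every AdipoRonPEG5 library was below all 6 others, and the vehicle and AdipoRon values overlapped. Against vehicle, Adipor2 fell by 24.8% with AdipoRonPEG5 (95% confidence interval of the change -33.7% to -14.6%). The log2 value was -0.41 with an SE of 0.083 (edgeR quasi-likelihood test, adjusted p = 0.00767 by the Benjamini-Hochberg method). The call held in all 18 alternative analyses, with adjusted p from 1.49e-05 to 0.0401. With AdipoRon the log2 fold change was -0.013 (95% confidence interval -0.20 to 0.17), and its sign turned to 0.089 under total-count scaling.

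Set against AdipoRon, the PEG-bearing compound gave a lower Adipor2 level, with a log2 difference of -0.40 (95% confidence interval -0.58 to -0.21, edgeR adjusted p = 0.0228). This call ended without AdipoRon 1, AdipoRon 3 or any 1 of the AdipoRonPEG5 libraries (adjusted p from 0.0622 to 0.10, with log2 differences from -0.41 to -0.37). With the dose uncertain, the compounds are compared only as labelled. Of 12 hepatocyte markers, 5 passed as lower with AdipoRonPEG5 against vehicle (7.63% of all genes) and 1 against AdipoRon (2.71%). With AdipoRon against vehicle 0 of 12 passed, where 5.20% of all genes passed in either direction. Their summed level was lowest in the AdipoRon group, whose range overlapped that of AdipoRonPEG5, and both groups lay below vehicle. Per 1000 counts of those markers, a measure added after seeing the data, Adipor2 was at 4.63, 4.01 and 4.84 counts in vehicle, 5.32, 5.14 and 5.14 in AdipoRon and 3.78, 3.77 and 3.68 in AdipoRonPEG5 libraries. The AdipoRonPEG5 values were again below all others, and the AdipoRon values were here above all vehicle values. Each of these 3 comparisons had an exact two-sided permutation p of 0.1, the smallest that 3 against 3 allows.

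**Figure D2:**
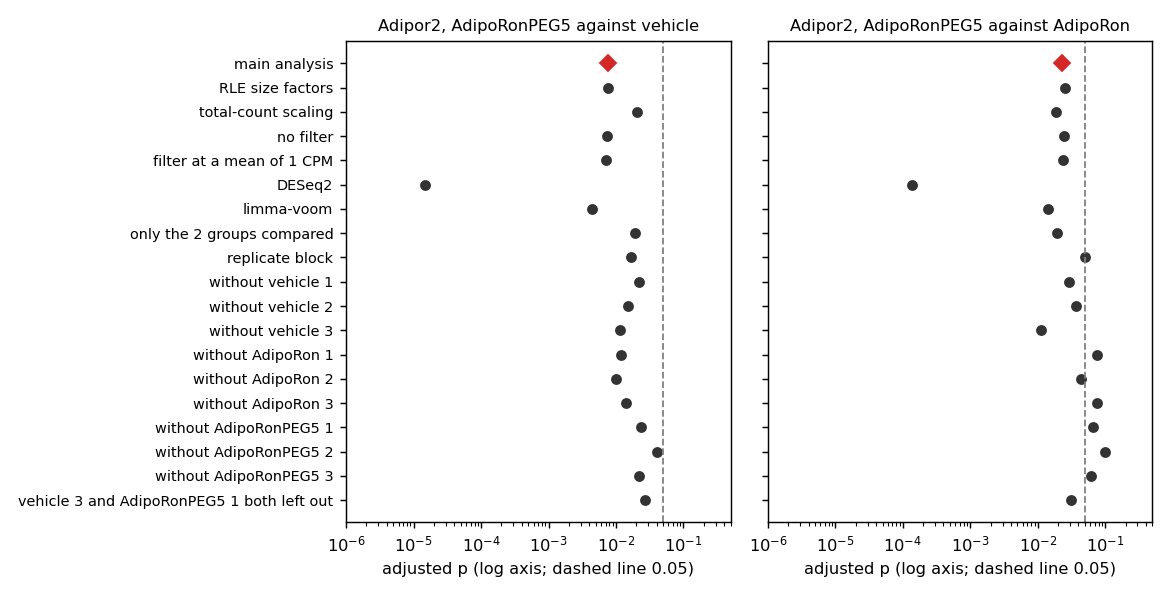
Adjusted p of Adipor2 (log axis) under the main analysis and 18 alternatives, for AdipoRonPEG5 against vehicle (left) and against AdipoRon (right), with a dashed line at 0.05. Against vehicle all points lie left of the line, and against AdipoRon 5 analyses that leave out 1 library lie right of it.

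Adipor1, the receptor expressed most widely across tissues, did not pass in any comparison. It was at 96.7, 88.2 and 95.4 CPM in vehicle, 103, 89.1 and 89.9 in AdipoRon and 93.2, 99.7 and 119 in AdipoRonPEG5 libraries. The groups overlapped, and AdipoRonPEG5 3 was the highest library. The log2 fold change with AdipoRonPEG5 was 0.15 (95% confidence interval -0.067 to 0.37, edgeR adjusted p = 0.329). It was 0.011 with AdipoRon (-0.21 to 0.23) and 0.14 between the compounds (-0.078 to 0.36).

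The ratio of the receptors was lower in each AdipoRonPEG5 library, in a design too small for its test to pass 0.05. The FPKM of Adipor2 divided by that of Adipor1 was 4.29, 4.34 and 4.58 in vehicle, 4.05, 4.37 and 4.63 in AdipoRon and 3.39, 2.98 and 2.66 in AdipoRonPEG5 libraries. All 3 AdipoRonPEG5 ratios were below all others, and the vehicle ratios lay inside the AdipoRon range. The log2 ratio differed by -0.56 against vehicle and by -0.54 against AdipoRon, each with an exact two-sided permutation p of 0.1, the smallest possible, and 0.18 after Benjamini-Hochberg adjustment over 9 ratio comparisons. Between AdipoRon and vehicle it differed by -0.020 (exact p = 1). A ratio within a library needs no scaling between libraries.

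**Figure D3:**
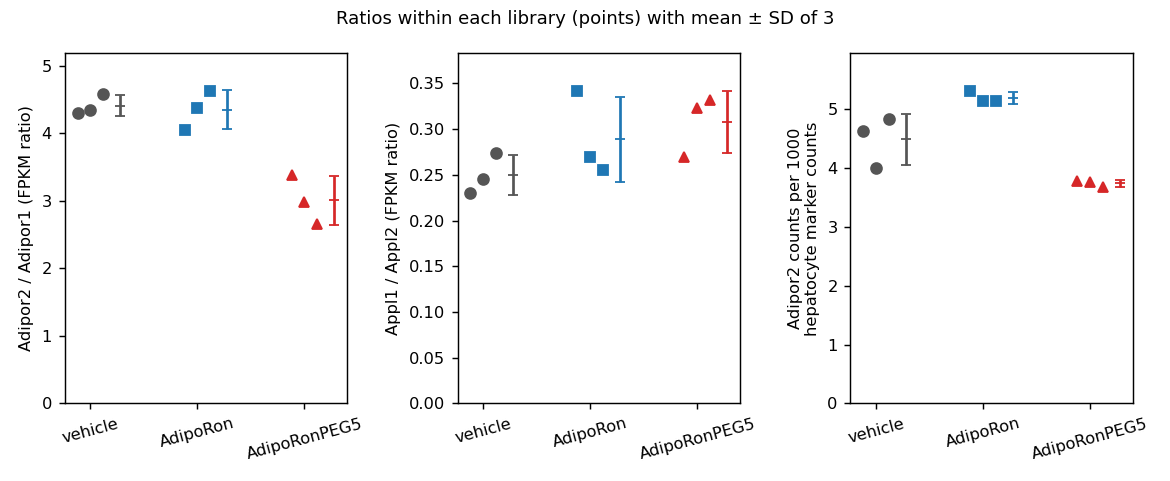
Ratios within each library, 1 point per library with mean ± SD of 3: Adipor2 to Adipor1 and Appl1 to Appl2 as FPKM ratios, and Adipor2 counts per 1000 hepatocyte marker counts. The AdipoRonPEG5 points lie below all others in the first panel (2.66 to 3.39) and the last (3.68 to 3.78).

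The genes whose levels followed each receptor most closely were found by the root mean square difference of centred log2 CPM over the 9 libraries, as a description without a test. For Adipor2 they were the heparan sulfate sulfotransferase gene Hs3st3b1 (difference 0.061), the zinc finger gene Zgpat (0.070) and the intraflagellar transport gene Ift172 (0.074), against a median of 0.29 over 13150 genes. Hs3st3b1 was at 100.3 ± 9.47, 99.5 ± 6.48 and 79.1 ± 2.06 CPM in vehicle, AdipoRon and AdipoRonPEG5 livers (SD, n = 3). For Adipor1 they were Nploc4 (0.046), a cofactor of the p97 ATPase, the endosomal trafficking gene Vps41 (0.054) and Gaa (0.055), lysosomal acid alpha-glucosidase, against a median of 0.25. Nploc4 was at 74.5 ± 5.28, 74.9 ± 9.44 and 80.1 ± 8.52 CPM.

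Cdh13 encodes T-cadherin, a lipid-anchored protein that binds adiponectin on endothelial and muscle cells. It had 35, 8 and 16 counts in vehicle, 20, 18 and 14 in AdipoRon and 13, 20 and 19 in AdipoRonPEG5 libraries. These correspond to 0.598 to 1.19, 0.957 to 1.23 and 0.802 to 1.17 CPM, and the groups overlapped. The log2 fold change of Cdh13 was 0.16 with AdipoRonPEG5 (95% confidence interval -0.52 to 0.85) and 0.25 with AdipoRon (-0.44 to 0.93), and -0.082 between the compounds (-0.77 to 0.60). Cdh13 did not pass in any comparison, and at this depth changes within these wide intervals remain compatible with the data. The summed levels of 12 endothelial markers were 187 to 231, 197 to 253 and 219 to 236 CPM in the same groups.

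Of the PAQR relatives, none passed in any comparison. Paqr9, a membrane progestin receptor, was the steadiest of the abundant ones, at 217, 221 and 222 CPM in vehicle, 220.3, 198 and 229 in AdipoRon and 218, 194 and 206 in AdipoRonPEG5 libraries. The groups overlapped, and the log2 fold changes against vehicle were -0.094 (95% confidence interval -0.27 to 0.083) with AdipoRonPEG5 and -0.028 (-0.20 to 0.15) with AdipoRon, the latter 0.073 under total-count scaling. Between the compounds it was -0.067 (-0.24 to 0.11).

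Paqr7, also a membrane progestin receptor, varied most between vehicle libraries among the abundant genes of the set. It was at 72.3, 49.6 and 34.7 CPM in vehicle, 52.2, 57.5 and 72.2 in AdipoRon and 59.7, 69.6 and 72.4 in AdipoRonPEG5 libraries. Vehicle 1 was about as high as the highest treated libraries, and vehicle 3, which also stood apart in Saa1, was the lowest of all. The log2 fold change with AdipoRonPEG5 was 0.35 (95% confidence interval -0.12 to 0.83, edgeR adjusted p = 0.298). It was 0.67 without vehicle 1, which passed (adjusted p = 0.0306), and 0.13 without vehicle 3 (adjusted p = 0.642). With AdipoRon it was 0.20 (-0.27 to 0.68), and -0.025 without vehicle 3. Between the compounds it was 0.15 (-0.33 to 0.63).

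Paqr3 encodes a Golgi protein that holds the sterol sensor SCAP at that organelle. It was at 4.01, 3.44 and 3.50 CPM in vehicle, 4.81, 3.11 and 4.44 in AdipoRon and 2.96, 2.80 and 2.65 in AdipoRonPEG5 libraries. All AdipoRonPEG5 values were below all others, and the vehicle values lay inside the AdipoRon range. The differences did not pass: the log2 fold change was -0.39 against vehicle (95% confidence interval -0.82 to 0.040, edgeR adjusted p = 0.202) and -0.55 against AdipoRon (-0.98 to -0.11, adjusted p = 0.134). With AdipoRon against vehicle it was 0.16 (-0.26 to 0.58).

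Paqr4 and Paqr8 were near the limit of detection. Paqr4 had 33, 2 and 5 counts in vehicle, 24, 9 and 10 in AdipoRon and 18, 21 and 18 in AdipoRonPEG5 libraries, or 0.848, 0.149 and 0.372, then 1.48, 0.500 and 0.683, then 1.11, 1.09 and 1.11 CPM. The AdipoRonPEG5 values were above all vehicle values and inside the AdipoRon range. The log2 fold change of Paqr4 against vehicle was 1.01 (95% confidence interval -0.11 to 2.13, edgeR adjusted p = 0.206) with AdipoRonPEG5, and 2.04 without vehicle 1 (adjusted p = 0.0567). With AdipoRon it was 0.69 (-0.47 to 1.86), and it was 1.72 without vehicle 1 and 0.10 without AdipoRon 1. Between the compounds it was 0.32 (-0.78 to 1.41), and 0.91 without AdipoRon 1. Paqr8, a membrane progestin receptor prominent in brain, had 5, 5 and 1 counts in vehicle, 1, 5 and 3 in AdipoRon and 4, 9 and 6 in AdipoRonPEG5 libraries. It was not tested, and 3 counts correspond to 0.0771 to 0.224 CPM in these libraries.

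The adaptors did not pass either. Appl1 was at 11.4, 11.1 and 13.8 CPM in vehicle, 14.1, 14.3 and 14.9 in AdipoRon and 11.8, 14.1 and 12.2 in AdipoRonPEG5 libraries. The AdipoRon values were above all others, by a narrow margin over AdipoRonPEG5 2 (14.13 against 14.07 CPM), and in FPKM AdipoRon and AdipoRonPEG5 overlapped. The log2 fold change of Appl1 was 0.26 with AdipoRon (95% confidence interval 0.0065 to 0.51, edgeR unadjusted p = 0.0453, adjusted p = 0.215), 0.079 with AdipoRonPEG5 (-0.18 to 0.33) and -0.18 between the compounds (-0.43 to 0.072).

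Appl2 was at 21.9, 19.9 and 22.2 CPM in vehicle, 18.3, 23.4 and 25.8 in AdipoRon and 19.4, 19.3 and 16.3 in AdipoRonPEG5 libraries. The AdipoRonPEG5 values were below all vehicle values in CPM but overlapped them in FPKM. The AdipoRon range covered that of vehicle and overlapped that of AdipoRonPEG5. The log2 fold change of Appl2 was -0.22 with AdipoRonPEG5 (95% confidence interval -0.50 to 0.060, edgeR adjusted p = 0.268), 0.072 with AdipoRon (-0.21 to 0.35) and -0.29 between the compounds (-0.58 to -0.012, adjusted p = 0.211). Within libraries, the FPKM of Appl1 divided by that of Appl2 was 0.231, 0.246 and 0.273 in vehicle, 0.342, 0.270 and 0.255 in AdipoRon and 0.269, 0.323 and 0.331 in AdipoRonPEG5 libraries. The groups overlapped, and the log2 ratio differed by 0.30 with AdipoRonPEG5 and 0.20 with AdipoRon (exact two-sided permutation p = 0.2 and 0.3).

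Counted together, 1 of the 9 tested genes, Adipor2, passed with AdipoRonPEG5 against vehicle, where 17.2% of all tested genes passed (9.55% higher, 7.63% lower). Of all genes called, 1256 were higher and 1004 lower, and under total-count scaling 1700 and 584. With AdipoRon against vehicle 0 of 9 passed by edgeR, DESeq2 or limma-voom, 1 had an unadjusted edgeR p under 0.05 (Appl1), and 5.20% of all genes passed (500 genes higher and 184 lower, and 883 and 64 under total-count scaling). Between the compounds 1 of 9 passed, Adipor2 again, where 5.39% of all genes passed (2.68% higher, 2.71% lower). The groups did not overlap in CPM for 4 genes with AdipoRonPEG5 against vehicle (Adipor2, Paqr3, Paqr4 and Appl2), for 1 with AdipoRon against vehicle (Appl1) and for 3 between the compounds (Adipor2, Paqr3 and Appl1). Over all tested genes these shares were 35.2%, 26.8% and 28.2%. The median log2 fold change of the 9 was 0.079, 0.16 and -0.082 in the 3 comparisons, against -0.0013, 0.0057 and -0.013 over all tested genes. Both comparisons with vehicle use the same 3 vehicle libraries.

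**Figure D4:**
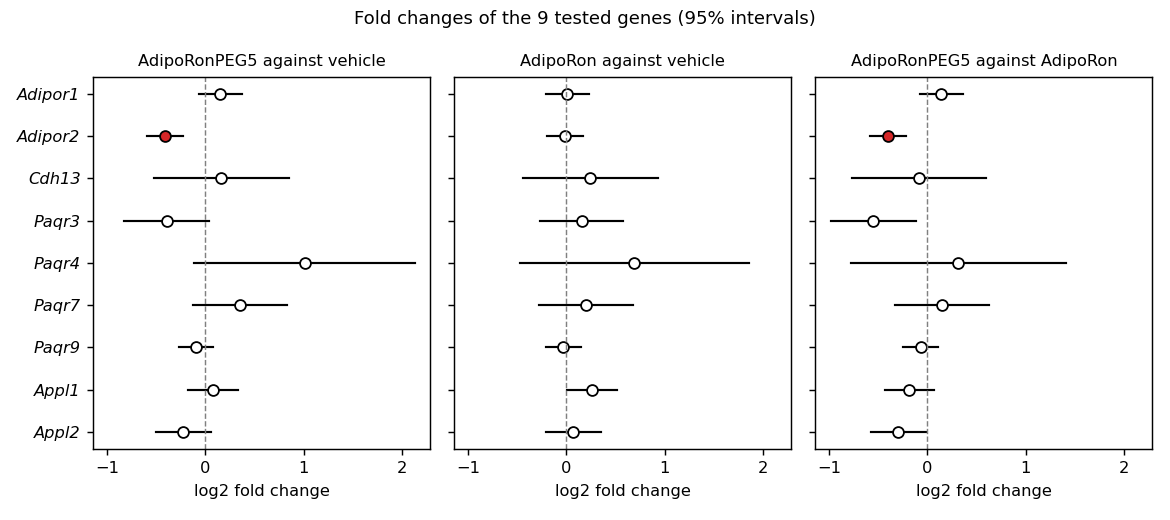
Log2 fold changes of the 9 tested genes with 95% confidence intervals in the 3 comparisons, filled where the edgeR adjusted p was under 0.05. Adipor2 is filled in the comparisons of AdipoRonPEG5 with vehicle (-0.41) and with AdipoRon (-0.40), and no gene is filled for AdipoRon against vehicle.

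The family members outside the set were read from a fixed list of 4. Paqr5 (0 to 3 counts per library) and Paqr6 (0 to 4) were not tested. Mmd, named for its rise as monocytes become macrophages, was at 190.3, 155 and 145 CPM in vehicle, 147, 143 and 166 in AdipoRon and 213, 205 and 235 in AdipoRonPEG5 libraries. Every AdipoRonPEG5 library was above all others. With AdipoRonPEG5 Mmd rose over vehicle (by 0.41 ± 0.11 (SE) on the log2 scale, edgeR adjusted p = 0.0261) and against AdipoRon (0.52 ± 0.11, adjusted p = 0.0236). The first call ended without vehicle 2, vehicle 3, AdipoRonPEG5 1 or AdipoRonPEG5 3 (adjusted p up to 0.10), and the second without AdipoRon 1, AdipoRon 2 or any 1 AdipoRonPEG5 library (up to 0.0820). With AdipoRon against vehicle Mmd did not pass (log2 fold change -0.10, edgeR adjusted p = 0.624). The macrophage markers given above rose with both compounds, and 0 of 11 passed between the compounds, where 5.39% of all genes did. The part of these markers in the Mmd result was not tested.

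Mmd2, its close relative, went the other way at a low level. It was at 3.60, 1.87 and 2.08 CPM in vehicle, 1.42, 1.44 and 2.60 in AdipoRon and 0.864, 1.35 and 0.925 in AdipoRonPEG5 libraries. AdipoRonPEG5 values were below all others, and Mmd2 fell by 1.31 on the log2 scale against vehicle (edgeR adjusted p = 0.0278). The call ended without vehicle 1, AdipoRonPEG5 1 or AdipoRonPEG5 3 (adjusted p up to 0.138). Between the compounds Mmd2 did not pass (log2 difference -0.77, 95% confidence interval -1.59 to 0.050, edgeR adjusted p = 0.261). Nor did it pass with AdipoRon against vehicle (log2 fold change -0.54, edgeR adjusted p = 0.380).

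**Figure D5:**
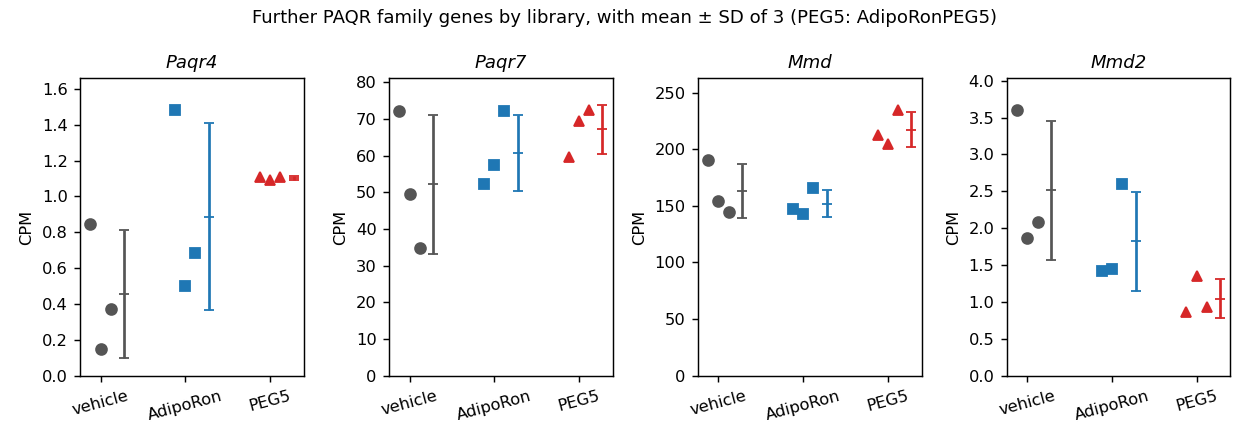
CPM of Paqr4, Paqr7, Mmd and Mmd2, 1 point per library with mean ± SD of 3 (PEG5 stands for AdipoRonPEG5). Mmd lies higher with AdipoRonPEG5 (205 to 235 CPM) than in the other groups and Mmd2 lower (0.864 to 1.35 CPM), while Paqr7 overlaps between groups.

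The rest of the pathway was read from 8 lists of 75 genes, 66 of them tested, which include the 4 relatives above. With AdipoRonPEG5 against vehicle 10 rose and 7 fell, where 9.55% of all tested genes rose and 7.63% fell. With AdipoRon against vehicle 0 passed by edgeR, where 5.20% of all genes passed, with 13 at an unadjusted p under 0.05 (21.9% of all genes), 1 called by DESeq2 and 0 by limma-voom. Between the compounds 5 were higher and 2 lower with AdipoRonPEG5, where 2.68% and 2.71% of all genes were. The median log2 fold change of the 66 was 0.039, -0.012 and 0.0096 in the same order.

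Among the ligands, adiponectin itself (Adipoq) had 1, 3 and 0 counts in the vehicle, AdipoRon and AdipoRonPEG5 groups and was not tested. Of 7 adipocyte markers, 4 (Adipoq, Plin1, Retn and Lep) were at 0 in all AdipoRonPEG5 libraries, and 1 to 4 were at 0 in each vehicle and 2 to 3 in each AdipoRon library. Of 4 tested ligand genes, 1 rose with AdipoRonPEG5 against vehicle, where 9.55% of all genes did. This was C1qtnf1, a secreted relative of adiponectin, from 3.35 ± 0.574 to 5.27 ± 0.877 CPM (SD, n = 3, log2 fold change 0.62, edgeR adjusted p = 0.0409). That call ended in 10 alternatives, among them limma-voom and 6 that left out 1 library (vehicle 2 or 3, AdipoRon 2 or 3, AdipoRonPEG5 2 or 3, adjusted p up to 0.142). Between the compounds C1qtnf1 did not pass (log2 difference 0.45, edgeR adjusted p = 0.187).

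Of 12 partners of the receptors and adaptors, 1 fell with AdipoRonPEG5 against vehicle (7.63% of all genes) and 1 was higher than with AdipoRon (2.68%). Pik3r1, the regulatory subunit of phosphoinositide 3-kinase, went from 109 ± 11.9 to 83.6 ± 4.29 CPM (log2 fold change -0.39, edgeR adjusted p = 0.0162), and its call ended under total-count scaling and without vehicle 1, vehicle 2 or AdipoRonPEG5 2 (up to 0.0709). Gnb2l1, the scaffold protein RACK1 that binds AdipoR1, was at 281 ± 28.04, 243 ± 20.0 and 320.3 ± 17.5 CPM in vehicle, AdipoRon and AdipoRonPEG5 livers. It was higher with AdipoRonPEG5 than with AdipoRon (log2 difference 0.40, edgeR adjusted p = 0.0411), a call that ended without vehicle 2, AdipoRon 1, AdipoRon 3 or any 1 AdipoRonPEG5 library (up to 0.13).

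Of 12 genes of AMPK and its upstream and downstream regulators, 1 rose with AdipoRonPEG5, where 9.55% of all genes did. This was Prkaa2, a catalytic subunit of AMPK, from 52.7 ± 3.76 to 63.3 ± 2.35 CPM (log2 fold change 0.26, edgeR adjusted p = 0.0395), a call that ended in 10 alternatives (adjusted p up to 0.15), among them those without vehicle 2, vehicle 3, AdipoRon 3 or any 1 AdipoRonPEG5 library. With AdipoRon Prkaa2 was at 60.4 ± 3.41 CPM (adjusted p = 0.171). In that comparison 7 of the 12, against 21.9% of all genes, had an unadjusted p under 0.05 and 0 passed by edgeR, DESeq2 or limma-voom.

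Of 13 genes of PPAR-alpha and fatty acid oxidation, 2 rose with AdipoRonPEG5 and 0 fell, a share near that of all genes called (17.2%). Ucp2, a mitochondrial carrier that is abundant in macrophages, rose from 21.5 ± 5.01 to 66.6 ± 10.2 CPM (log2 fold change 1.63, edgeR adjusted p = 0.000759) and was at 37.0 ± 10.4 CPM with AdipoRon (0.78, adjusted p = 0.0543). Its difference between the compounds (0.85, adjusted p = 0.0362) lost its call without AdipoRon 2, AdipoRon 3 or any 1 AdipoRonPEG5 library (up to 0.125). Macrophage markers rose with both compounds, and their part in the result was not tested. Ehhadh, a peroxisomal enzyme of fatty acid oxidation, rose from 171 ± 53.4 to 294 ± 50.1 CPM (0.77, adjusted p = 0.0383). That call ended without vehicle 2 or any 1 AdipoRonPEG5 library (log2 fold changes from 0.62 to 0.90, adjusted p from 0.051 to 0.137).

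Of 12 tested genes of ceramide and sphingosine metabolism, 4 rose with AdipoRonPEG5 and 0 fell (9.55% and 7.63% of all genes). Asah1, the lysosomal acid ceramidase, was at 23.7 ± 1.76, 25.5 ± 1.67 and 38.0 ± 2.22 CPM in vehicle, AdipoRon and AdipoRonPEG5 livers. It rose against vehicle (log2 fold change 0.68, edgeR adjusted p = 0.000776) and against AdipoRon (0.58, adjusted p = 0.00582). Sphk2, a sphingosine kinase, rose against vehicle from 48.5 ± 3.91 to 64.1 ± 2.504 CPM (0.40, adjusted p = 0.00731). It was at 54.6 ± 3.57 CPM with AdipoRon and did not pass between the compounds (0.23, edgeR adjusted p = 0.124). These calls of Asah1 and Sphk2 held in all alternatives run.

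Of 8 partners of Paqr3 and of progestin receptors, 1 rose and 3 fell with AdipoRonPEG5 against vehicle (9.55% and 7.63% of all genes). Insig2, which retains SCAP in the endoplasmic reticulum, was at 81.9 ± 8.19, 84.6 ± 10.2 and 51.5 ± 5.63 CPM and fell by 0.67 on the log2 scale against vehicle (edgeR adjusted p = 0.00329) and by 0.71 against AdipoRon (adjusted p = 0.00834). Pgrmc1, a haem-binding membrane protein linked to progesterone responses, was at 1095 ± 124, 1119 ± 127 and 1592 ± 35.6 CPM. It rose against vehicle (0.54, adjusted p = 0.00897) and against AdipoRon (0.51, adjusted p = 0.0285), and the second call ended without AdipoRon 1, AdipoRon 2 or any 1 AdipoRonPEG5 library (up to 0.0951).

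Of 3 genes of glucose production that adiponectin is known to lower, 2 fell with AdipoRonPEG5 (7.63% of all genes). Pck1, which makes phosphoenolpyruvate, was at 4662 ± 1074, 3031 ± 971 and 1778 ± 608 CPM in vehicle, AdipoRon and AdipoRonPEG5 livers (log2 fold change -1.39 with AdipoRonPEG5, edgeR adjusted p = 0.00729; -0.62 with AdipoRon, adjusted p = 0.215). Foxo1, a transcription factor that drives Pck1, was at 51.6 ± 9.98, 38.1 ± 9.79 and 30.3 ± 5.78 CPM (-0.77 with AdipoRonPEG5, adjusted p = 0.0226; -0.44 with AdipoRon, adjusted p = 0.216). The Foxo1 call ended without vehicle 1, vehicle 2, AdipoRonPEG5 1 or AdipoRonPEG5 2 (up to 0.0897).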

How the data were processed

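The authors deposited raw read counts per gene and FPKM for each library, per the file headers. Per the submitters' processing notes, STAR 2.5, TopHat, HTSeq 0.6.1, DESeq2 and edgeR were used, with no role given; genome build, annotation and strand setting are not given in the sources used here. Each deposited FPKM is the count divided by gene length and library total (with implied lengths whole within 0.01 for 99.995% of nonzero values). The genes, lists, tests and most alternatives were chosen with earlier results of these data known.

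Counts of all 9 libraries entered 1 edgeR 4.0.16 quasi-likelihood fit (R 4.3.3, TMM, filterByExpr with a minimum count of 10, 3 group means, no replicate block), with Benjamini-Hochberg adjustment over 13151 genes at 0.05. The fit was tested on simulated data. FPKM served for levels between genes and for ratios, tested by exact permutation. Alternatives used other size factors, filters, limma-voom (limma 3.58.1), DESeq2 1.42.0, only 2 groups, replicate blocking and the omission of each library. Leaving out vehicle 3 and AdipoRonPEG5 1 together was chosen after seeing the data. Named genes were all 10, up to 2 passing genes per list and comparison by lowest p, and the 3 nearest profiles of each receptor. Marker lists also covered stellate, smooth muscle, lymphocyte, neutrophil and cholangiocyte markers. Their summed levels in vehicle, AdipoRon and AdipoRonPEG5 were 135 to 180, 174 to 209 and 189 to 214 CPM (stellate), 6.86 to 9.30, 9.70 to 13.0 and 9.13 to 16.6 (smooth muscle), 0.893 to 1.57, 2.87 to 5.06 and 4.62 to 5.61 (lymphocyte), 0.374 to 0.744, 0.679 to 1.11 and 1.17 to 4.20 (neutrophil, with Ly6g at 0 throughout), 30.3 to 44.1, 37.6 to 48.2 and 26.8 to 40.1 (cholangiocyte) and 13.8 to 40.6, 15.5 to 39.6 and 9.62 to 15.4 (adipocyte).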

Additional observations from a re-analysis of the deposited data

How the results depend on the processing

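Member log2 fold changes were recomputed 480 times over 27 results: 458 kept their direction and side of the threshold, 5 lost the call, 1 gained it and 16 changed sign, all 16 without a call. The cause of these changes was not tested, except that leaving out a library leaves fewer samples. Leaving out each library in turn gave 1337 to 2334 genes called with AdipoRonPEG5 against vehicle, 250 to 624 with AdipoRon against vehicle and 233 to 1032 between the compounds. It gave 1 to 2 called members of the set with AdipoRonPEG5 against vehicle (2 without vehicle 1) and 0 to 1 between the compounds. The same series gave Adipor2 between the compounds -0.43 to -0.37, and Paqr7 0.13 to 0.67, Appl1 -0.0027 to 0.17 and Cdh13 -0.014 to 0.34 with AdipoRonPEG5 against vehicle. With AdipoRon against vehicle it gave Adipor1 -0.063 to 0.041, Adipor2 -0.069 to 0.026, Paqr7 -0.025 to 0.52, Paqr9 -0.073 to 0.022 and Appl2 -0.038 to 0.20, and between the compounds Cdh13 -0.20 to 0.052. Paqr4 ranged from 0.70 to 2.04 with AdipoRonPEG5 and 0.10 to 1.72 with AdipoRon against vehicle, and from 0.019 to 0.91 between the compounds.

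Only the 2 groups compared gave 325 genes called with AdipoRon against vehicle, against 684 in the main analysis. Libraries of the same replicate number showed no sign of pairing (correlations of deviations -0.268 to 0.0772), though 3 libraries per group cannot exclude it. A replicate block gave 444 genes with AdipoRon against vehicle, 338 against 709 between the compounds, and ended the calls of C1qtnf1, Mmd2, Prkaa2 and Ehhadh against vehicle and of Mmd, Gnb2l1 and Pgrmc1 between the compounds. Adipor2 between the compounds was then at an edgeR adjusted p of 0.04998. Total-count scaling, which moved the median of all genes to 0.10, turned Adipor2 to 0.089 and Paqr9 to 0.073 with AdipoRon against vehicle. With vehicle 3 and AdipoRonPEG5 1 both left out, Adipor2 was at 0.028 and Paqr7 at -0.023 with AdipoRon against vehicle, Cdh13 at 0.058 between the compounds, and the log2 ratio of Appl1 to Appl2 at 0.46 with AdipoRonPEG5 against vehicle. The depth limits Paqr4, Paqr8 and Cdh13, with at most 35 counts in a library.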
